A study of Mus musculus with 12 samples.

Results

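The comparison described here sets lipopolysaccharide (LPS)-stimulated peritoneal macrophages of mice fed a high fat diet (HFD) against those of mice fed chow, both after 24 h of LPS. It comprises 6 of the 12 RNA-seq libraries of the series, 3 per diet, chosen by the diet and LPS time in their labels. The tissue was peritoneal macrophages, all mice were female, and the other 6 libraries (3 chow and 3 HFD) were made at 0 h of LPS. The sources used here do not give strain, genotype, age, LPS dose or the composition and duration of the diets, nor do they state whether libraries come from separate mice or whether 0 h and 24 h libraries share a mouse. The p-values therefore measure the spread between these libraries, which may be technical. The series' title places the samples in the question of whether a pentose phosphate pathway defect in hypercholesterolemia lowers inflammatory macrophage responses.

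LPS engages toll-like receptor 4, which activates NF-kB and, through type I interferon, a set of interferon-stimulated genes. Macrophages that take up cholesterol store it as ester and export it: oxysterols activate the nuclear receptor LXR, which induces the exporters ABCA1 and ABCG1, and sterols in the endoplasmic reticulum hold back SREBP2, the factor that turns on cholesterol synthesis. The pentose phosphate pathway makes NADPH, which is used by nitric oxide synthase, by glutathione recycling and by sterol synthesis, and the factor NRF2 induces antioxidant enzymes.

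The libraries at 24 h held between 11186643 and 20688063 gene-assigned counts. Levels below are CPM, the counts relative to library totals scaled by TMM. The 10 macrophage markers summed to between 11000 and 13910 CPM in the 6 libraries. B cell, T and NK cell, mast cell and eosinophil markers each summed to under 40 CPM and neutrophil markers to between 112.5 and 159 CPM. S100a9 (neutrophils), Cd209a (dendritic cells) and Slc4a1 (erythroid cells) had 0 counts in all 6, where 3 counts equal 0.145 to 0.268 CPM. Other neutrophil markers were counted, with S100a8 at 20.3 to 51.3 CPM and Csf3r at 69.8 to 99.1 CPM. By contrast, Ly6g, Mpo, Elane, Ltf, Ngp and Cxcr2 had at most 7 counts in any of the 6 libraries. The marker sum therefore does not show that neutrophils were present, nor do the 0 counts of S100a9 show that they were absent. The 10 dendritic cell markers summed to 39.5, 33.6 and 31.5 CPM in chow and to 21.5, 19.8 and 21.8 CPM in HFD, without overlap. Ccr7 alone supplied most of each of these sums, at 24.22 to 32.6 CPM in chow and 13.99 to 15.33 CPM in HFD. Of the 5 dendritic cell markers tested, 2 were lower and 1 higher in HFD without overlap. The sums therefore do not show fewer dendritic cells in HFD, and the part of these markers in the values below was not tested. The 18 mesothelial and stromal markers differed more. They summed to 3180, 2230 and 1091 CPM in chow replicates 1 to 3. In HFD replicates 1 to 3 the sums were 1136, 1165 and 1036 CPM, so 2 chow libraries stood above the rest. Most of each sum came from the collagens Col1a1, Col1a2 and Col3a1. The mesothelial markers Msln, Upk3b, Upk1b, Krt19, Krt8, Krt18 and Lrrn4 were at most 0.90 CPM in any 24 h library. The sums therefore say little about mesothelial cells. The GC slope, which is the slope of a library's log2 CPM (minus each gene's mean) on the GC fraction of the transcript, was above 0 in chow replicates 1 and 2 and HFD replicate 1 (0.87, 0.77 and 0.96) and below 0 in chow replicate 3 and HFD replicates 2 and 3 (-2.76, -1.98 and -2.56). At 0 h, 1 library stood apart: HFD replicate 3 held 2360209 counts, against 9134888 to 12335109 in the other 0 h libraries, with a GC slope of 3.40. A sequencing lane tag stood in the column names of all 3 chow libraries and of HFD replicate 1, but not of HFD replicates 2 and 3. Fold changes within the 3 libraries of either GC class are given below for the main genes, with no test.

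**Figure D1:**
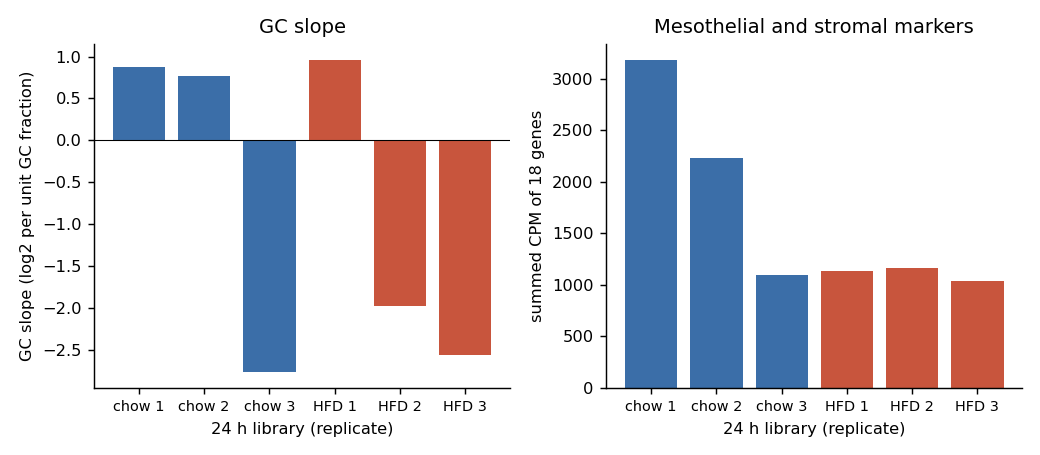
GC slope (left, log2 units per unit of GC fraction) and summed CPM of the 18 mesothelial and stromal markers (right) in each 24 h library, with blue bars for chow and red bars for HFD. Both signs of the slope occur in both diets, and chow replicates 1 and 2 hold the highest marker sums, 3180 and 2230 CPM.

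Of the 24558 genes counted, 12638 passed the filter on low counts, and after 24 h of LPS 1 of them passed the test (edgeR's quasi-likelihood test, Benjamini-Hochberg adjustment at 0.05). It was higher in HFD, and 0 genes passed as lower. The shares of tested genes called are 0.00791% and 0.00%. At an unadjusted p under 0.05 the same test gave 993 genes (7.86%), of which 427 (3.38%) were higher and 566 (4.48%) lower in HFD. DESeq2 called 22 genes higher (0.174%) and 19 lower (0.150%), and limma-voom 4 higher (0.0317%) and 7 lower (0.0554%). With the GC slope described above as a term in the edgeR fit, 12 were higher (0.0950%) and 9 lower (0.0712%). The median log2 fold change (HFD against chow) over all tested genes was 0.0032, and 96.9% of genes lay between -1 and 1. The median 95% interval of a gene, which is not adjusted for the number of genes, reached 0.43 log2 units to either side. Differences of that size were commonly not resolved with 3 libraries per diet. The adjusted test also left out larger ones, such as the 1.17 of Abcg1 described below.

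**Figure D2:**
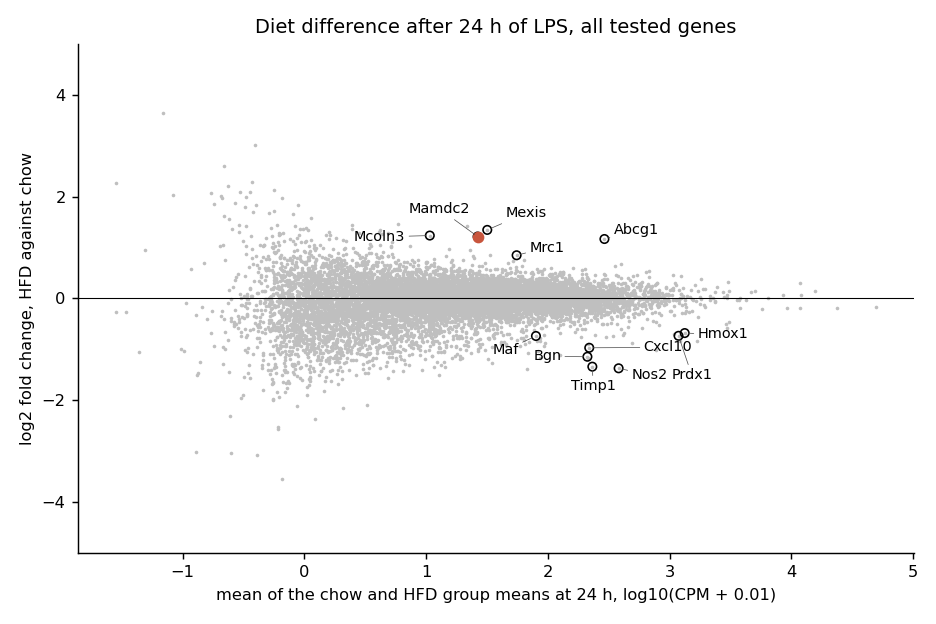
Log2 fold change at 24 h (HFD against chow, vertical) by mean level (log10 of CPM plus 0.01, horizontal) for the 12638 tested genes. The red point is Mamdc2, the gene that passed; circled genes are described in the text and did not pass.

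Mamdc2, which encodes a secreted proteoglycan with MAM domains, rose with HFD. It lies at chr19:23302609-23448497 (GRCm38.p6) and overlaps the predicted gene Gm41821. At 24 h Mamdc2 stood at 13.6, 15.8 and 18.4 CPM in the chow libraries and at 39.1, 35.9 and 36.2 CPM in the HFD libraries. All 3 HFD libraries were above all 3 chow libraries. The diets did not overlap in 12.3% of tested genes, counting both directions (792 genes with HFD higher and 758 with HFD lower), and the share of 12.3% set beside the gene lists below covers both. The log2 fold change was 1.22 ± 0.16 (SE; 95% interval 0.87 to 1.56; adjusted p = 0.0139, edgeR's quasi-likelihood test). It was 1.41 within the libraries of positive GC slope and 0.96 within those of negative slope. At 0 h the gene was far more abundant, at 335, 389 and 501 CPM in chow and 694, 573 and 620 CPM in HFD, with a log2 fold change of 0.62 (edgeR adjusted p = 0.222). The call at 24 h was lost in edgeR without chow 24 h replicate 1 (adjusted p = 0.183), without chow 24 h replicate 2 (adjusted p = 0.158) or without HFD 24 h replicate 2 (adjusted p = 0.0563). It was also lost in edgeR with the 24 h libraries alone (adjusted p = 0.0809).

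The other genes with the smallest p in either direction did not pass. Mcoln3, an endolysosomal cation channel and the gene nearest to the threshold on its far side, was at 5.37, 7.44 and 6.42 CPM in chow and 12.3, 18.02 and 14.7 CPM in HFD (log2 fold change 1.24 ± 0.20, edgeR adjusted p = 0.0726). The higher end of the ranking also held Abcg1, described below, Tmem268 (0.74 ± 0.14) and Rragd (0.84 ± 0.16), a Rag GTPase of lysosomal nutrient sensing. Both had an edgeR adjusted p of 0.122.

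At the lower end stood Maf, a transcription factor of resident macrophages, at 109, 99.1 and 91.5 CPM in chow and 57.9, 61.8 and 59.8 CPM in HFD. Its log2 fold change was -0.74 ± 0.14. Rbm8a, a core subunit of the exon junction complex, had -0.70 ± 0.13, and Ptgr1, a reductase that inactivates prostaglandins and leukotriene B4, had -0.69 ± 0.13. Prdx1, a peroxiredoxin, had -0.74 ± 0.14. For these 4 genes edgeR's adjusted p was 0.122. Bgn (biglycan, a matrix proteoglycan) had -1.15 ± 0.23 (edgeR adjusted p = 0.142).

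The LXR list, which covers cholesterol efflux, leaned towards HFD. Of its 16 tested members (2 more did not pass the filter on low counts), 14 had a log2 fold change above 0, against 50.4% of all tested genes, and the median was 0.19 (0.30 without HFD replicate 3). In edgeR none passed. At an unadjusted p under 0.05, 4 were higher (3.38% of all tested genes) and none lower. DESeq2 and limma-voom each called 1 higher, against 0.174% and 0.0317% of all tested genes. The diets did not overlap in 6 of the 16, all with HFD higher, against 12.3% of all tested genes in either direction.

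Abcg1, which exports cholesterol to high density lipoprotein, was at 187, 158 and 193 CPM in chow and 368, 560 and 282 CPM in HFD. All HFD values were above the chow values, with a wide spread among them. The log2 fold change was 1.17 ± 0.20 (95% interval 0.75 to 1.59; edgeR adjusted p = 0.0849), and it was 1.09 and 1.04 within the positive and negative GC classes. Abca1, which loads cholesterol onto apolipoprotein A-I, had 557, 551 and 548 CPM in chow and 768, 808 and 839 CPM in HFD. The diets did not overlap, and its log2 fold change was 0.54 ± 0.16 (edgeR adjusted p = 0.433). Pltp, a phospholipid transfer protein, was at 342, 273 and 304 CPM against 485, 594 and 391 CPM (0.68 ± 0.18, edgeR adjusted p = 0.326). Mylip, a ubiquitin ligase that LXR induces, had 0.76 ± 0.27, with HFD replicate 3 among the chow values.

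Mexis, a long noncoding RNA near Abca1 that LXR induces and that promotes Abca1 expression, is named after its values were seen and was in no list. Its levels were 16.6, 16.1 and 21.1 CPM in chow and 45.9, 52.9 and 38.3 CPM in HFD, without overlap (log2 fold change 1.35 ± 0.27, edgeR adjusted p = 0.130). The 24 h levels stood above those at 0 h in both diets, where chow had 4.57 to 5.23 CPM and HFD 3.14 to 15.7 CPM.

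Genes of cholesterol synthesis and SREBP2 leaned the opposite way. Of 27 tested members 26 had a log2 fold change below 0, and the median was -0.39. No member passed in edgeR, DESeq2 or limma-voom; 7 were lower and 0 higher at an unadjusted p under 0.05 (4.48% of all tested genes were lower at that p). The diets did not overlap in 5 (18.5%, against 12.3% of all tested genes), all with HFD lower. The median was -0.25 within the positive and -0.41 within the negative GC class, and -0.21 without HFD replicate 2. With the lane tag as a covariate (HFD replicate 1 against chow) it was -0.17. At 0 h it was -0.84.

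Sqle (squalene epoxidase) had 88.9, 81.2 and 74.4 CPM in chow against 50.5, 25.8 and 62.9 CPM in HFD. All HFD values were lower, that of replicate 2 by the most (log2 fold change -0.81 ± 0.27). Pmvk (phosphomevalonate kinase) had -0.64 ± 0.19, without overlap, and Stard4, a cytosolic sterol carrier, had -0.62 ± 0.23, with overlap. In Sqle and Stard4 the lowest of the 6 values was that of HFD replicate 2.

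Hmgcs1, the synthase of 3-hydroxy-3-methylglutaryl-CoA, had 150, 154 and 121 CPM in chow and 113, 69.7 and 130 CPM in HFD (log2 fold change -0.44 ± 0.22, 95% interval -0.92 to 0.03). Its promoter is printed because it was the only one of 19 list members with a RefSeq promoter window to hold the letters of the sterol response element. The windows searched here are the 250 bases before the annotated start, on both strands, and the letters TCACNCCAC occur in 1.20% of the windows of 10033 tested genes. The sequence lies at chr13:119690101-119690350 (GRCm38.p6, plus strand). Capitals mark TCACCCCAC, whose first base is 137 bases before the start, and a minus-strand match to the NF-kB letters GGGNNTTCC. A match is a description of the letters, not a measured site.
Hmgcs1: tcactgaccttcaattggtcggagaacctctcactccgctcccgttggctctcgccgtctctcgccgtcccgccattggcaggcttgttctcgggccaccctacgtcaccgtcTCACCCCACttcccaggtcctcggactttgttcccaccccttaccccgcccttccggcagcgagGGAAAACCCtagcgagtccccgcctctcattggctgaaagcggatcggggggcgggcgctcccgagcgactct

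**Figure D3:**
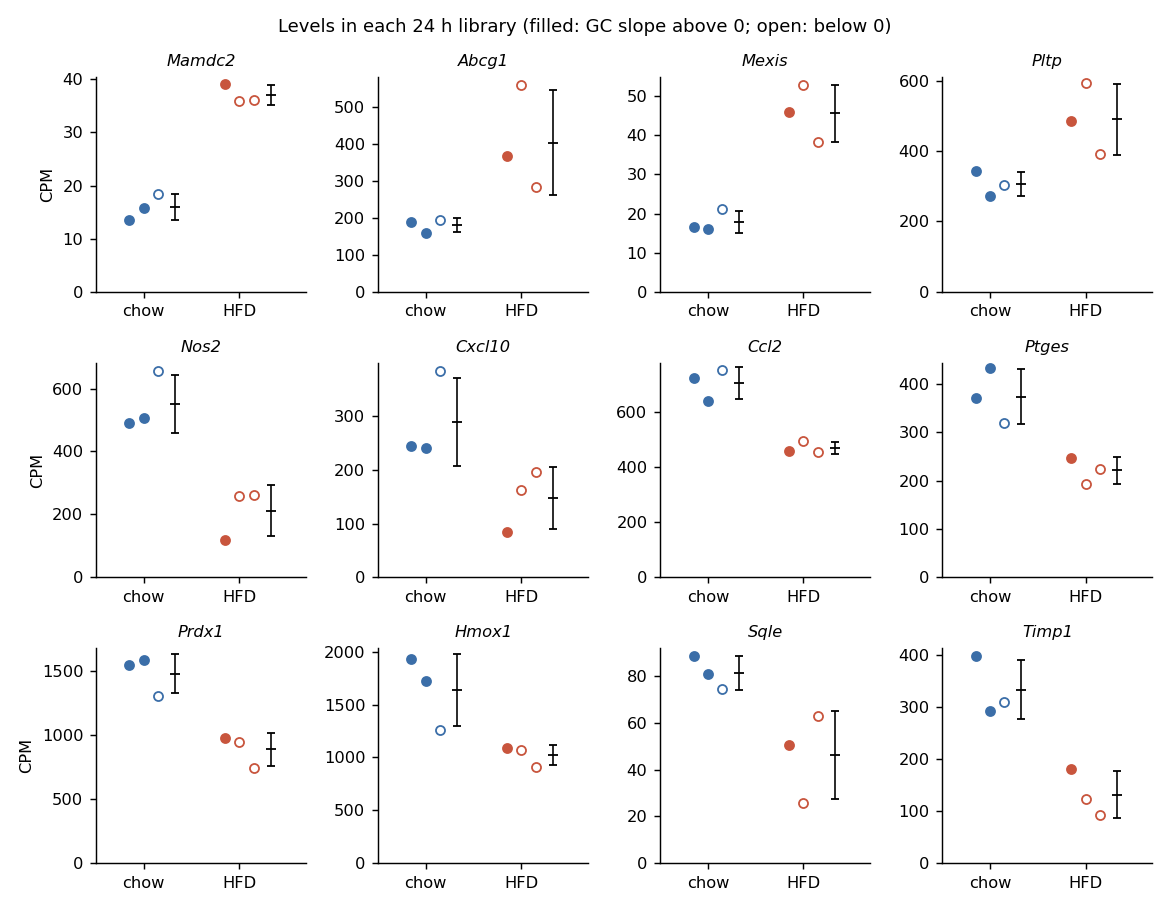
CPM of 12 genes in each 24 h library (vertical axes from 0), chow in blue and HFD in red; filled circles are libraries with a GC slope above 0, open circles those below 0, and the black mark is the mean with its SD (n = 3). The genes were picked from those described in which the HFD libraries do not overlap the chow libraries.

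The list of NF-kB feedback genes and inflammatory effectors leaned lower with HFD. It holds NF-kB subunits and inhibitors as well as effectors, so its median is not that of the effectors alone. Of 36 tested members of that list, 24 had a log2 fold change below 0, and the median was -0.18 (-0.08 without HFD replicate 2). No member passed in edgeR; 8 were lower at an unadjusted p under 0.05 (22.2%, against 4.48% of all tested genes), none higher. DESeq2 and limma-voom each called 1 lower, against 0.150% and 0.0554% of all tested genes. The diets did not overlap in 8 of the 36 (22.2%, against 12.3% of all tested genes), all with HFD lower.

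Nos2, the inducible nitric oxide synthase, had 0 counts in the 3 chow libraries at 0 h and 0, 0.779 and 1.35 CPM in the HFD libraries. At 24 h it stood at 491, 505 and 655 CPM in chow and at 118, 257 and 261 CPM in HFD. The highest HFD value lay below the lowest chow value (log2 fold change -1.37 ± 0.31, 95% interval -2.06 to -0.69; edgeR adjusted p = 0.296). The difference was -2.07 within the positive and -1.34 within the negative GC class, and within each class the HFD libraries were lower. With the GC slope as a covariate Nos2 had an edgeR adjusted p of 0.0495.

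Ptges, the inducible prostaglandin E synthase, was at 371, 432 and 319 CPM in chow and 248, 193 and 224 CPM in HFD (-0.76 ± 0.17, edgeR adjusted p = 0.203). Acod1, which makes itaconate, was at 3378, 3345 and 3926 CPM against 2371, 1991 and 2710 CPM (-0.59 ± 0.16, edgeR adjusted p = 0.342). Neither gene overlapped between diets. Lcn2, a siderophore-binding protein, had -0.72 ± 0.22. Ptgs2 (cyclooxygenase 2) had -0.58 ± 0.32, with overlap. Arg1, which uses the same substrate as the nitric oxide synthase, had 437, 489 and 361 CPM in chow and 223, 343 and 202 CPM in HFD (-0.75 ± 0.45, 95% interval -1.73 to 0.24).

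Cytokines and chemokines had a median of -0.45, with 25 of 29 tested members below 0. The median was -0.19 within the positive and -0.65 within the negative GC class, and -0.28 without HFD replicate 2. With the lane tag as a covariate (HFD replicate 1 against chow) it was -0.13. With edgeR, DESeq2 and limma-voom none passed; 5 were lower and 0 higher at an unadjusted p under 0.05, against 4.48% lower among all tested genes. The diets did not overlap in 8 (27.6%, against 12.3% of all tested genes), all with HFD lower. Ccl2, which recruits monocytes, stood at 724, 641 and 754 CPM in chow and 459, 495 and 455 CPM in HFD. Its values did not overlap (log2 fold change -0.59 ± 0.19, edgeR adjusted p = 0.509). Ccl7, a related chemokine, had 111, 109 and 94.3 CPM against 48.7, 73.9 and 52.3 CPM (-0.84 ± 0.21, edgeR adjusted p = 0.296).

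Not all cytokines differed alike. Il6 was scarce at 24 h, with 2.61, 3.05 and 3.21 CPM in chow and 1.11, 0.839 and 1.34 CPM in HFD (-1.42 ± 0.45). Tnf was at 188, 218 and 280 CPM in chow and 209, 129 and 218 CPM in HFD, with overlap (-0.30 ± 0.22, 95% interval -0.78 to 0.17). Il1b had 66.0, 102 and 102 CPM against 76.9, 23.8 and 87.9 CPM, and the low value was that of HFD replicate 2 alone (-0.52 ± 0.35). Il12b was below 4 CPM in each library (-0.45 ± 0.67). Ccl5 was at 1708, 1714 and 1994 CPM in chow and 1906, 1792 and 1669 CPM in HFD, so the diets overlapped (-0.01 ± 0.14, 95% interval -0.31 to 0.28).

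Interferon-stimulated genes had a median of -0.15, with 37 of 49 tested members below 0. The median was -0.33 within the positive and -0.27 within the negative GC class. With the lane tag as a covariate (HFD replicate 1 against chow) it was -0.48. Without chow replicate 3, HFD replicate 1 and HFD replicate 2 it was -0.01, -0.03 and -0.24. EdgeR called none. At an unadjusted p under 0.05, 8 were lower and 0 higher (4.48% of all tested genes were lower at that p). DESeq2 called 1 lower, against 0.150% of all tested genes, and limma-voom 0. Chow and HFD libraries did not overlap in 4 members (8.16%, against 12.3% of all tested genes), all with HFD lower. The antiviral gene Oasl1 stood at 512, 432 and 591 CPM in chow and 266, 360 and 303 CPM in HFD, without overlap (-0.72 ± 0.17, edgeR adjusted p = 0.248). Rsad2 (viperin) had 2226, 1636 and 2565 CPM against 771, 1685 and 1138 CPM, so HFD replicate 2 lay within the chow range (-0.84 ± 0.24, edgeR adjusted p = 0.421). Ifit1 had -0.40 ± 0.26 and Cmpk2, a mitochondrial nucleotide kinase induced by interferon, -0.69 ± 0.24, both with overlap.

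Cxcl10, a chemokine that attracts T cells through CXCR3, was at 245, 240 and 385 CPM in chow and 84.0, 163 and 196 CPM in HFD. The groups did not overlap (-0.97 ± 0.27, 95% interval -1.55 to -0.39; edgeR adjusted p = 0.384), and the difference was -1.53 and -1.10 within the positive and negative GC classes. Cxcl10 overlaps Art3 in the annotation. Its promoter is shown because it holds the letters of both routes that LPS uses: the interferon response element core GAAANNGAA, present in 21 of 36 interferon-stimulated genes with a window (58.3%) and in 7.72% of all windows, and the NF-kB letters GGGNNTTCC, present in 7 of 30 members of the NF-kB list (23.3%) and in 7.39% of all windows. The window is chr5:92348890-92349139 (GRCm38.p6, minus strand). Capitals mark, in order, GAAAGTGAA starting 213 bases and GGGACTTCC starting 103 bases before the start, and GCTGAGTCA, a minus-strand match to the antioxidant letters TGACNNNGC described below.
Cxcl10: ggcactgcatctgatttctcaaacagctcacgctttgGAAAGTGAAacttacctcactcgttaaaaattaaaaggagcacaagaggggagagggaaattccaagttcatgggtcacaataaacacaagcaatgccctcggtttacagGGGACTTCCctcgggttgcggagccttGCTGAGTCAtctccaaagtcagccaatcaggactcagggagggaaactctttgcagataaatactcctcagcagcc

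**Figure D4:**
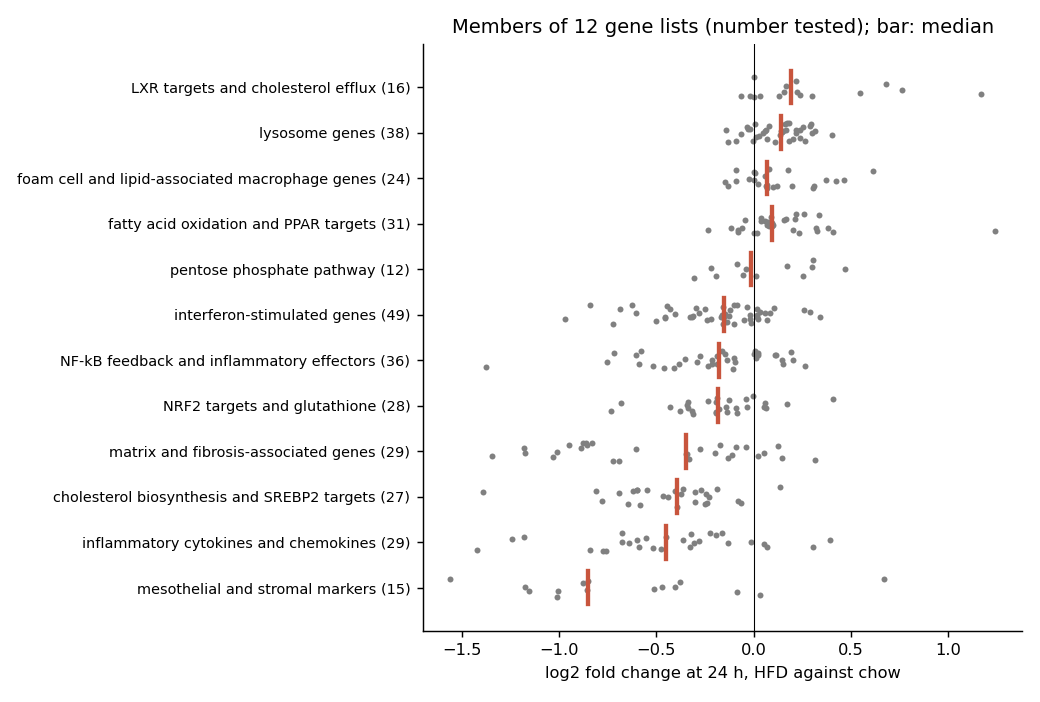
Log2 fold change at 24 h (HFD against chow, horizontal) of each tested member of 12 gene lists (grey points, number tested in brackets) with the list's median (red bar). Medians run from -0.85 for mesothelial and stromal markers to 0.19 for LXR targets, beside 0.0032 for all tested genes.

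NRF2 targets and glutathione genes, which detoxify peroxides and electrophiles, had a median of -0.18, with 23 of 28 tested members below 0. EdgeR called 0 of them. At an unadjusted p under 0.05, 6 were lower and 0 higher (4.48% of all tested genes were lower at that p). DESeq2 called 2 lower and limma-voom 1 lower, against 0.150% and 0.0554% of all tested genes. Chow and HFD libraries did not overlap in 8 members (28.6%, against 12.3% of all tested genes), all with HFD lower. The median was -0.21 within the positive and -0.22 within the negative GC class, and -0.12 without chow replicate 3.

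Hmox1, the heme oxygenase, was at 1930, 1724 and 1264 CPM in chow and 1088, 1068 and 909 CPM in HFD. The values did not overlap (log2 fold change -0.68 ± 0.15, edgeR adjusted p = 0.172). Srxn1, which repairs overoxidized peroxiredoxins, had 287, 281 and 260 CPM against 210, 213 and 214 CPM (-0.38 ± 0.12, edgeR adjusted p = 0.459), and Blvrb, a biliverdin and flavin reductase, had -0.43 ± 0.14. Both lacked overlap. Slc7a11, the cystine transporter, had -0.34 ± 0.27 with overlap, and Nqo1 was at 2.45 to 4.32 CPM in the 6 libraries (-0.19 ± 0.39).

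Prdx1 stood at 1544, 1589 and 1304 CPM in chow and 977, 948 and 740 CPM in HFD at 24 h, and at 755 to 823 CPM in chow and 457 to 604 CPM in HFD at 0 h. The HFD libraries were below the chow libraries at both times, and the 24 h difference was -0.68 and -0.64 within the positive and negative GC classes. Prdx1 overlaps AV051173 in the annotation. Its promoter window, chr4:116685349-116685598 (GRCm38.p6, plus strand), is printed as the NRF2 list's example. Capitals mark GCTGAGTCA, a minus-strand match to the antioxidant response element core TGACNNNGC that begins 133 bases before the start. These letters occur in 7 of 24 list members with a window (29.2%) and in 14.1% of all windows.
Prdx1: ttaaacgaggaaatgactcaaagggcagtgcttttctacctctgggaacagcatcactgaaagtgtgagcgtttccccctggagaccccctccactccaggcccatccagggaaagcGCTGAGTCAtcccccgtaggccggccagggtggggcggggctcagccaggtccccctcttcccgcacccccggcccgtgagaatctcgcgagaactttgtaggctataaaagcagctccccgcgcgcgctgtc

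The pentose phosphate pathway did not lean to either side at 24 h. Of 12 tested members 6 lay above and 6 below 0, the median was -0.01, and none passed edgeR's test, DESeq2 or limma-voom. At an unadjusted p under 0.05, 1 was higher and 1 lower (3.38% and 4.48% of all tested genes). G6pdx, the enzyme that commits glucose to the pathway, was at 283, 269 and 350 CPM in chow and 286, 265 and 299 CPM in HFD. The groups overlapped, and the 95% interval of the log2 fold change ran from -0.49 to 0.31, around -0.09. Pgd, the second NADPH-yielding dehydrogenase, had 651, 708 and 475 CPM against 516, 476 and 493 CPM. Chow replicate 3, with a GC slope of -2.76, stood level with the HFD libraries, and the log2 fold change was -0.31 ± 0.14 over all 24 h libraries, -0.40 within the positive and 0.03 within the negative GC class.

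In the non-oxidative branch, Tkt (transketolase) had -0.22 ± 0.18 and Taldo1 (transaldolase) -0.19 ± 0.15, with 95% intervals of -0.59 to 0.15 and -0.52 to 0.13. Prps2, which makes phosphoribosyl pyrophosphate, was at 18.3, 21.97 and 26.1 CPM in chow and 27.4, 26.5 and 38.0 CPM in HFD (0.47 ± 0.18, edgeR adjusted p = 0.557). Other NADPH sources split: Nnt, the mitochondrial transhydrogenase, had 0.47 ± 0.17 and Aldh1l2, a mitochondrial folate dehydrogenase, -1.12 ± 0.33, neither past edgeR's test and both without overlap.

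Lysosome genes were mostly slightly higher with HFD. The log2 fold change was above 0 in 30 of 38 tested members with a median of 0.14, and the diets did not overlap in 9 (23.7%, against 12.3% of all tested genes), all with HFD higher. None passed edgeR's test, DESeq2 or limma-voom, and 3 were higher and 0 lower at an unadjusted p under 0.05, against 3.38% higher among all tested genes. The sialidase Neu1 was at 178, 192 and 188 CPM in chow and 239, 240 and 215 CPM in HFD (0.31 ± 0.12). The peptidase Tpp1 had 0.29 ± 0.13 and Npc1, which exports cholesterol from the lysosome, 0.30 ± 0.15, both without overlap.

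Fatty acid oxidation and PPAR targets had a median of 0.09 (0.15 without chow replicate 3 or HFD replicate 3), with 25 of 31 tested members above 0 and 7 (22.6%, against 12.3% of all tested genes) without overlap between the diets, all with HFD higher. None was called by edgeR, DESeq2 or limma-voom; 4 were higher and 0 lower at an unadjusted p under 0.05, against 3.38% higher among all tested genes. Echs1, an enoyl-CoA hydratase, had 0.33 ± 0.13, and the coactivator Ppargc1a, at 0.522 to 2.45 CPM, had 1.24 ± 0.47. The fatty acid transporter Cd36 had 1178, 1161 and 1469 CPM against 1157, 1434 and 1312 CPM (0.04 ± 0.14, 95% interval -0.27 to 0.34). Among the genes of foam and lipid-associated macrophages, 19 of 24 were above 0 with a median of 0.07. None of them passed edgeR's test, DESeq2 or limma-voom, and 3 were higher at an unadjusted p under 0.05, again beside 3.38% of all tested genes. Gpnmb stood at 11030, 10830 and 9996 CPM in chow and 13650, 12870 and 12890 CPM in HFD, without overlap (0.31 ± 0.13, edgeR adjusted p = 0.5998), and Trem2, a lipid-sensing receptor, had 0.30 ± 0.14 with overlap.

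Markers of alternative activation were split, with a median of -0.08 over 16 tested members. None passed edgeR's test or limma-voom. At an unadjusted p under 0.05, 2 were higher and 1 lower (3.38% and 4.48% of all tested genes). DESeq2 called 1 higher, against 0.174% of all tested genes. Mrc1, the mannose receptor, was at 30.8, 39.2 and 48.6 CPM in chow and 79.0, 81.5 and 53.3 CPM in HFD (0.85 ± 0.19, edgeR adjusted p = 0.203). Its difference was 1.18 within the positive and 0.44 within the negative GC class. Chil3 had 6.04, 6.01 and 22.9 CPM in chow and 29.96, 38.4 and 26.0 CPM in HFD, and its difference was 2.28 and 0.46 in the same order. Epas1, which encodes HIF2A, was at 51.0, 44.8 and 46.4 CPM against 97.3, 72.7 and 70.9 CPM (0.76 ± 0.16, edgeR adjusted p = 0.162).

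Matrix genes had a median of -0.35 (-0.52, -0.68 and -0.53 without chow replicate 3, HFD replicate 1 and HFD replicate 3), with 24 of 29 tested members below 0, and the summed level of mesothelial and stromal markers was also highest in chow replicates 1 and 2. None passed edgeR's test; 11 were lower and 0 higher at an unadjusted p under 0.05 (4.48% of all tested genes were lower at that p), and DESeq2 and limma-voom each called 1 lower, against 0.150% and 0.0554% of all tested genes. The mesothelial and stromal markers themselves had a median of -0.85 over 15 tested members. At an unadjusted p under 0.05, 6 of them were lower, against 4.48% of all tested genes. None of these markers passed edgeR, DESeq2 or limma-voom. Col1a1, Col1a2 and Col3a1 belong to both lists and supplied most of the marker sum in each 24 h library. The marker sum and the matrix list are therefore not separate observations. Within the positive GC class, which holds both chow libraries with high marker sums, the medians were -0.58 for matrix genes and -1.10 for the markers. Within the negative class they were -0.07 and 0.12. In bulk RNA fewer cells of a type and less RNA per cell cannot be told apart, and the part of stromal RNA in the matrix values was not tested.

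Col1a1, a fibroblast collagen, had 1517, 1093 and 519 CPM in chow and 568, 498 and 485 CPM in HFD. Its difference was -1.18 within the positive and -0.08 within the negative GC class. Wt1, the only mesothelial marker of the list above 0.90 CPM, had -1.45 and -0.17 in the same order, and Thy1 -1.28 and -0.92. Fn1 (fibronectin) had -0.86 and -0.42, and Bgn had -1.19 and -0.76. Timp1, a metalloproteinase inhibitor, stood at 397, 292 and 309 CPM in chow and 180, 123 and 91.3 CPM in HFD, and its difference was larger within the negative class (-0.92 and -1.54). Its log2 fold change over all 24 h libraries was -1.34 ± 0.27 (edgeR adjusted p = 0.143). It overlaps Syn1. Thbs1 (thrombospondin 1) was at 1278, 1446 and 1338 CPM against 854, 680 and 980 CPM, with -0.67 and -0.71 in the 2 classes, and Timp3, which overlaps Syn3, had -1.11 and -0.63.

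The heat shock genes Hspa1a and Hspa1b, near-identical copies whose reads the counting could split, had -1.56 ± 0.39 and -2.10 ± 0.56 at levels under 9 CPM. None of the 16 tested cytosolic heat shock genes passed edgeR's test or limma-voom. At an unadjusted p under 0.05, 4 were lower, against 4.48% of all tested genes. DESeq2 called 1 lower, against 0.150% of all tested genes. Dusp1, an immediate early phosphatase that shuts off MAP kinases, was at 259, 194 and 173 CPM in chow and 149, 147 and 118 CPM in HFD (-0.60 ± 0.15, edgeR adjusted p = 0.296).

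The diet difference at 24 h was then set beside that at 0 h, which uses other libraries. The label numbers recur at both times, so the libraries may share mice. The mesothelial and stromal markers summed at 0 h to 2576, 1412 and 822 CPM in chow replicates 1 to 3, the same order as at 24 h. In HFD replicates 1 to 3 they summed to 740, 1017 and 1459 CPM. The part of a shared source in the likeness of the 2 times was not tested. Over the 12638 tested genes the log2 fold changes at the 2 times had a Pearson's r of 0.32 and a Spearman's rho of 0.32, a description across genes, which are not independent. Of the genes with an unadjusted p under 0.05 at both times, 73 were higher with HFD at both, 117 lower at both and 3 opposite. Abcg1 (0.80 at 0 h), Pltp (0.74), Abca1 (0.62), Sqle (-1.30) and Prdx1 (-0.55) had the same sign at both times. Without the shallow HFD 0 h replicate 3, a check added after the data were seen, r was 0.34 and rho 0.38, the counts were 95, 135 and 4, and these 5 genes kept their signs at 0 h.

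The interaction, which tests whether the diet difference depends on LPS, gave 0 genes with edgeR at an adjusted p under 0.05 (0.00% of genes), 297 at an unadjusted p under 0.05 (2.35%), 9 with DESeq2 and 0 with limma-voom. At 0 h 11 genes passed edgeR's test, all lower with HFD (0.0870% of tested genes). Because these genes were picked by their p at 0 h, a smaller difference at 24 h does not show that LPS removed it. Without HFD 0 h replicate 3, 8 of the 11 still passed at 0 h, Ccl5, Irf7 and Acod1 among them. Ccl5 had -1.25 at 0 h and -0.01 at 24 h, and Irf7, the interferon regulatory factor, had -1.24 and -0.12. Their interaction terms had edgeR adjusted p-values of 0.0806 and 0.395. Acod1 had -1.50 and -0.59 (interaction edgeR adjusted p = 0.9998). In the opposite pattern, Hmox1 had -0.16 at 0 h and -0.68 at 24 h, Rbm8a -0.12 and -0.70, and Mrc1 -0.06 (0.06 without HFD 0 h replicate 3) and 0.85, again with no interaction past edgeR's threshold.

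**Figure D5:**
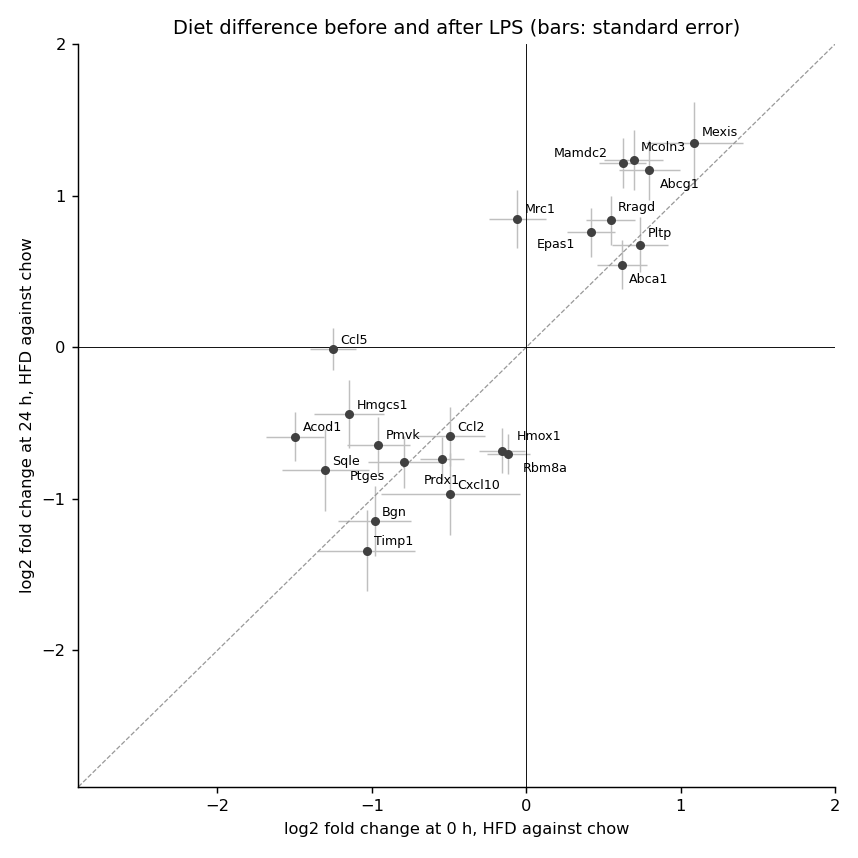
Log2 fold change (HFD against chow) at 24 h (vertical) against that at 0 h (horizontal) for 22 named genes; bars are standard errors and the dashed line marks equal values. Ccl5 lies at -1.25 and -0.01, Mrc1 at -0.06 and 0.85, and most other genes lie on the same side of 0 at both times.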

How the data were processed

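Libraries were made with the NuGen Ovation Universal kit from RNA isolated with a Qiagen kit, per the labels' protocols. The submitters' processing notes name CASAVA 1.8.2, STAR 2.5.2b and mm10; no source used here says how reads were counted, with which annotation or whether by strand. Reads of overlapping genes therefore cannot be told apart. The authors deposited raw counts, whole and not normalized, for 35745 RefSeq transcript identifiers. For each of 24558 genes the transcript of highest mean count was used; 117 identifiers without a symbol were kept. Gene positions and promoters are RefSeq's for GRCm38.p6. All 12 libraries were fitted in edgeR 4.0.16 (R 4.3.3) with 4 group means, TMM, filterByExpr, which left 12638 genes, robust quasi-likelihood tests and Benjamini-Hochberg adjustment at 0.05. The SE is the absolute log2 fold change over the square root of F. The common biological coefficient of variation was 18.0%. No 2 libraries of a group agreed within sampling noise, and each was counted as 1 replicate. That check cannot tell separate mice from technical libraries of the same mouse, because GC slopes also differ between libraries.

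The comparison, its 41 gene lists (907 of 908 entries matched) and the rules were chosen with earlier results of these data known. Named genes were 25 key genes, the 5 smallest p in each direction, the genes nearest to the threshold on either side, up to 4 members of each list described with the smallest p, and passing genes of at least 10 CPM without overlap (Mamdc2). Irf7 and Mexis fall outside the rule and were named after their values were seen; a few genes picked by the rule are left unreported. The script was tested on simulated data. Alternatives changed scaling, filters, transcripts, covariates and tools (limma 3.58.1, DESeq2 1.42.0) and left out each library in turn.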

Additional observations from a re-analysis of the deposited data

How the results depend on the processing

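With 1 gene passing (1 higher, 0 lower), the count moved to 10 (8 higher, 2 lower) without a filter on low counts, 21 (12 and 9) with a GC slope term, 11 (4 and 7) with limma-voom, 12 (5 and 7) with the label number as a random effect and 41 (22 and 19) with DESeq2. It was 0 when the change had to exceed 1.5-fold and with only the 24 h libraries. Alternatives added after seeing the data gave 66 (25 and 41) with sample quality weights and 4 (2 and 2) with the sign of the GC slope as a block. Leaving out 1 library gave 0 to 4 genes (0 to 3 higher, 0 to 1 lower), with 0 without chow 24 h replicates 1 or 2 or HFD 24 h replicate 2, 2 without chow 24 h replicate 3 or HFD 24 h replicate 3, 3 without HFD 24 h replicate 1 and 4 without the shallow HFD 0 h replicate 3. The interaction count of 0 moved to 3 without a filter, 2 with the GC slope, 3 with the random effect, 9 with DESeq2 and 5 with quality weights, and to 0 to 3 without 1 library. With the replicate block 0 genes passed for diet and 4 for the interaction. Chow and HFD replicates with the same number had deviations correlated by 0.17, -0.11 and 0.21. Those with unlike numbers ran from -0.30 to 0.24, so the correlations cannot tell whether libraries are paired. With the GC slope Mamdc2, Mcoln3, Abcg1, Tmem268, Rragd, Mexis and Epas1 passed as higher and Maf, Rbm8a, Ptgr1, Prdx1, Cxcl10, Timp1 and Nos2 as lower.

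Of the named genes, 64 kept their sign under each alternative run and 6 did not. Leaving out 1 library, the log2 fold change ran from -1.17 to 0.177 for Il12b, -0.163 to 0.0542 for G6pdx, -0.370 to 0.0251 for Nqo1 and -0.0575 to 0.0802 for Ccl5, each highest without chow 24 h replicate 3. Ccl5 was 0.0341 without HFD 24 h replicate 3, 0.0013 without a filter, 0.0784 with the lane tag as a covariate, 0.0792 with only the lane-tagged libraries and 0.0385 with quality weights. Nqo1 was 0.0150 with quality weights. Tkt was 0.0045 with the lane tag and 0.0059 with only the lane-tagged libraries. Both settings compare HFD replicate 1 with chow and are not separate checks. Cd36 was -0.134 with the lane tag, -0.133 with only the lane-tagged libraries, -0.0358 with the GC slope, -0.0619 with its sign as a block, -0.0216 and -0.0276 without chow 24 h replicates 1 and 2, and -0.0455 without HFD 24 h replicate 2. The medians of 22 of 40 lists kept their sign under each alternative; the pentose phosphate list ran from -0.04 to 0.09 and foam cell genes from -0.0064 to 0.28. The 3 libraries per diet limit precision, and the cause of these moves was not tested.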
